A study of Homo sapiens with 6 samples.

Results

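The basic helix-loop-helix axis of TCF3, ID3 and cyclin D3 was described in 3 Burkitt lymphoma lines with and without miR26a. It comprised 7 genes: the E proteins TCF3, TCF4 and TCF12, their inhibitors ID1, ID2 and ID3, and the cyclin gene CCND3. A probe set counted as a member when the platform annotation gave it 1 of these symbols alone, which 32 probe sets did. For each gene the probe set brightest on average across the 6 arrays was used, and the 7 genes stand among 19775 chosen in the same way. Of those, 12012 had a mean of at least 4.42 on the log2 scale, the median over non-control probe sets, and were tested. Of the members, 6 of 7 were tested, and ID1, with a mean of 4.12, was not.

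Namalwa, Raji and Ramos are established human B-cell lines from Burkitt lymphoma, a tumour driven by translocated MYC. For each line there was 1 array of transfected cells labelled miR26a and 1 of cells labelled empty. The labels list doxycycline at 0.5 µg/ml for 72 h as the treatment of all 6. The drug was meant to switch on the microRNA in the cells labelled miR26a. Total RNA was hybridised to Affymetrix U133 Plus arrays, and the deposited values are RMA log2 intensities, so a difference of 1 is a 2-fold difference. The labels do not say whether a transfected line was a pool or a clone, and there is no second culture of any condition. P-values therefore measure only the spread between these arrays, and in the tests between lines the 2 arrays of a line stand in for replicates.

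E proteins are transcription factors that pair with each other and bind E-boxes, short DNA elements in enhancers and promoters of B-cell genes. ID proteins have the helix-loop-helix that pairs with an E protein but no DNA-binding region, so a pair that holds one cannot bind DNA. In Burkitt lymphoma TCF3 and ID3 are recurrently mutated, which frees TCF3 from its inhibitor, and ID3 is itself a gene that TCF3 activates. CCND3 encodes cyclin D3, the D-type cyclin that germinal centre B cells depend on. It is another gene that TCF3 activates, and it too is recurrently mutated in this tumour. Arrays report RNA levels, and mutations in these genes were not analysed here.

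The microRNA is shown with its seed in capitals (bases 2 to 8), because the groups are labelled by it, although its own level was not analysed here. RefSeq lists the same mature sequence at chr3:37969413-37969434 on the plus strand (MIR26A1) and chr12:57824658-57824679 on the minus strand (MIR26A2) of GRCh38.p14.
hsa-miR-26a-5p: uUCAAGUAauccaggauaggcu

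Windows of 300 bases around annotated starts, from 250 bases before to 50 after, are shown for ID3, ID2 and CCND3, an inhibitor that differed between all 3 lines, a second inhibitor and the cyclin. They come from RefSeq on GRCh38.p14, at chr1:23559452-23559751 (minus strand) for ID3, chr2:8681806-8682105 (plus strand) for ID2 and chr6:42048639-42048938 (minus strand), 1 of 3 windows of CCND3. Capitals mark an E-box, CANNTG, which reads the same pattern on both strands.
ID3: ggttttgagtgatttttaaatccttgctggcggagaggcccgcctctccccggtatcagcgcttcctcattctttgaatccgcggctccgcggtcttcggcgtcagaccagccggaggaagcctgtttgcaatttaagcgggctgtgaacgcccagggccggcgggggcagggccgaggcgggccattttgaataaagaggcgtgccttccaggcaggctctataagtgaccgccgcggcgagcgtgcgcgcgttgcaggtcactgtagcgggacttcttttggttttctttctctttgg
ID2: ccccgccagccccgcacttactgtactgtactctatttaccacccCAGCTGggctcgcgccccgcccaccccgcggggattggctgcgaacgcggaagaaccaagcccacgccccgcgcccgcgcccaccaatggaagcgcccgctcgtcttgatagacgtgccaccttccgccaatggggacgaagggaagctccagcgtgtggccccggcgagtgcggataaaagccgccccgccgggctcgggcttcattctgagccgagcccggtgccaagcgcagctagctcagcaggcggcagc
CCND3: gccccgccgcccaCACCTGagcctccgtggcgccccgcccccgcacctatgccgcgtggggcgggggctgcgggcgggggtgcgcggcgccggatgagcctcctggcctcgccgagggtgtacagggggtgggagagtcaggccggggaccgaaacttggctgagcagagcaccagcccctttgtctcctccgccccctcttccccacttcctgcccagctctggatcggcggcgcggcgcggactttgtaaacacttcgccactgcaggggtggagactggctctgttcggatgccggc
The ID2 window holds CAGCTG, which begins 205 bases before the start. The CCND3 window shown holds CACCTG, 237 bases before, while the other CCND3 windows hold no CANNTG. The ID3 window holds no CANNTG either. The pattern is common: 68.7% of 35116 windows of this length hold CANNTG, and 17.9% hold CAGCTG. The form CAGGTG, which is CACCTG on the other strand, is in 20.6% on either strand. The form CACGTG, also a form of CANNTG and the E-box that MYC is known to bind, is in 7.26%. Of 22 windows of the 7 members, 11 held CANNTG, in 4 genes. These matches describe letters only and say nothing of binding.

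All 6 tested members differed between Raji and the other lines. TCF3, TCF4, TCF12, ID2 and ID3 were lower in Raji than in Namalwa and Ramos, and CCND3 was higher in Raji. ID3 also differed between Namalwa and Ramos, by 1.92-fold. No member passed the test between miR26a and empty arrays.

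**Figure D1:**
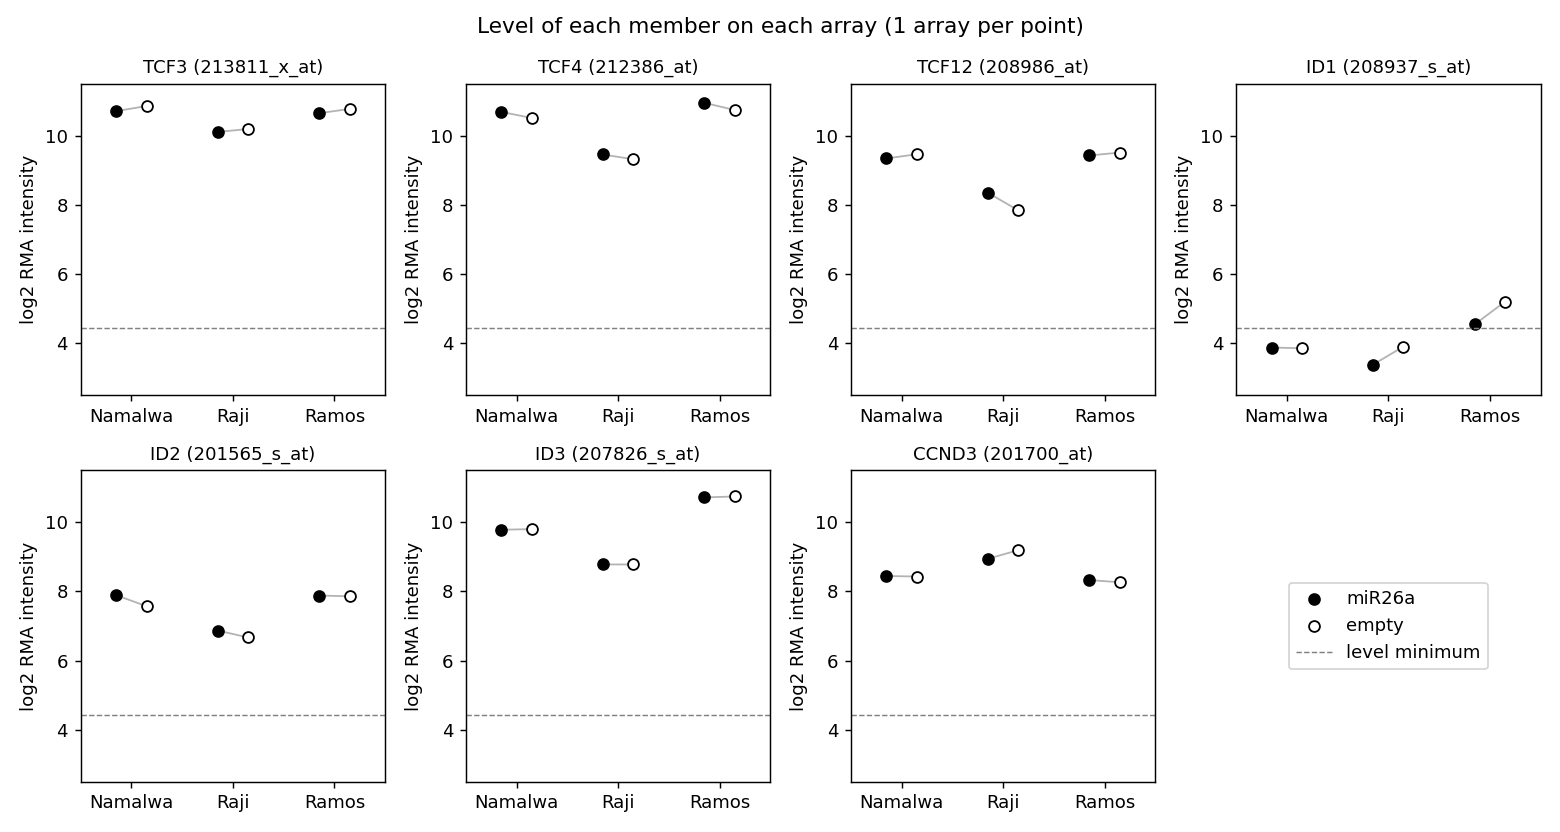
Log2 intensity of the 7 members on each array, by line, with miR26a left of empty. Both Raji arrays lie below the other 4 for TCF3, TCF4, TCF12, ID2 and ID3, and above them for CCND3.

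Among the E proteins, TCF3 is the one most tied to Burkitt lymphoma. Its log2 level was 10.70 on the miR26a array and 10.85 on the empty array of Namalwa. In Raji it was 10.10 with miR26a and 10.19 with empty, and in Ramos 10.64 with miR26a and 10.77 with empty. Both Raji arrays were below the other 4, and the Namalwa and Ramos arrays overlapped. Namalwa exceeded Raji by 0.63 (SE 0.12), 1.55-fold (adjusted p = 0.00203), and Raji was below Ramos, with a difference of -0.56 (adjusted p = 0.00369). Between Namalwa and Ramos the difference was 0.07, with a 95% interval of -0.20 to 0.34 (adjusted p = 0.747).

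TCF4, an E protein known for its role in plasmacytoid dendritic cells and B cells, gave larger differences. Its level was 10.68 with miR26a and 10.51 with empty in Namalwa. In Raji the values were 9.45 with miR26a and 9.31 with empty, and in Ramos 10.95 with miR26a and 10.74 with empty. Raji was again lowest without overlap. Namalwa exceeded Raji by 1.21 (SE 0.12), 2.32-fold (adjusted p = 3.28e-05), and Raji minus Ramos was -1.46 (adjusted p = 8.46e-06), Ramos being 2.75-fold higher. Namalwa minus Ramos was -0.25 with an interval of -0.52 to 0.03 (adjusted p = 0.220).

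TCF12, a widely expressed E protein that pairs with the others, showed the widest gap within a line among the tested members. It measured 9.34 with miR26a and 9.46 with empty in Namalwa, and 9.42 with miR26a and 9.51 with empty in Ramos. In Raji it measured 8.34 with miR26a and 7.83 with empty. Both Raji arrays were about 1 log2 unit or further below the other 4, although they differed from each other by 0.51. Namalwa exceeded Raji by 1.31 (SE 0.17; adjusted p = 0.000165), and Raji minus Ramos was -1.38 (adjusted p = 0.000104). The Namalwa minus Ramos difference of -0.07 had an interval of -0.44 to 0.31 (adjusted p = 0.837).

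ID3, the inhibitor recurrently mutated in Burkitt lymphoma, was called in all 3 comparisons of lines. Its level was 9.78 with miR26a and 9.80 with empty in Namalwa. It was 8.78 on both Raji arrays, and 10.72 with miR26a and 10.75 with empty in Ramos. The order was Ramos, Namalwa, Raji, and no pair of lines overlapped. TCF4, in the same order, and CCND3, in the reverse order, also had no overlap between lines. Their Namalwa and Ramos arrays were closer, and that difference was not called. The share of all genes without overlap between any lines was not analysed here. Namalwa exceeded Raji by 1.01 (SE 0.12), 2.02-fold (adjusted p = 0.000108). Raji minus Ramos was -1.95 (SE 0.12; interval -2.22 to -1.68; adjusted p = 1.03e-06), so Ramos had 3.87-fold more signal. Namalwa minus Ramos was -0.94 (SE 0.12; adjusted p = 0.000976), which made ID3 the 1 member of 6 called between these lines.

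ID2, an inhibitor best known for its part in innate lymphoid and natural killer cell development, was at 7.89 with miR26a and 7.57 with empty in Namalwa. The Raji values were 6.87 with miR26a and 6.67 with empty, and the Ramos values 7.88 with miR26a and 7.86 with empty. Raji was lowest without overlap, and the Namalwa and Ramos arrays overlapped. Namalwa exceeded Raji by 0.96 (SE 0.13), 1.95-fold (adjusted p = 0.000239), and Raji minus Ramos was -1.10 (adjusted p = 8.78e-05). The Namalwa minus Ramos difference was -0.14 with an interval of -0.43 to 0.15 (adjusted p = 0.533).

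ID1, the third inhibitor, lay near the low end of the array scale. It was at 3.87 with miR26a and 3.85 with empty in Namalwa, and at 3.38 with miR26a and 3.90 with empty in Raji. In Ramos it was at 4.54 with miR26a and 5.19 with empty. Only the 2 Ramos arrays were above the level minimum of 4.42. With no minimum, the Raji minus Ramos difference was -1.23 (adjusted p = 0.00022) and Namalwa minus Ramos was -1.01 (adjusted p = 0.00423).

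CCND3 ran the other way. It measured 8.45 with miR26a and 8.43 with empty in Namalwa, and 8.33 with miR26a and 8.26 with empty in Ramos. In Raji it measured 8.94 with miR26a and 9.19 with empty. Both Raji arrays were above all others. Namalwa minus Raji was -0.63 (SE 0.13; adjusted p = 0.00355), 1.55-fold more in Raji, and Raji exceeded Ramos by 0.77, 1.71-fold (adjusted p = 0.000964). Namalwa minus Ramos was 0.14 with an interval of -0.16 to 0.44 (adjusted p = 0.531).

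**Figure D2:**
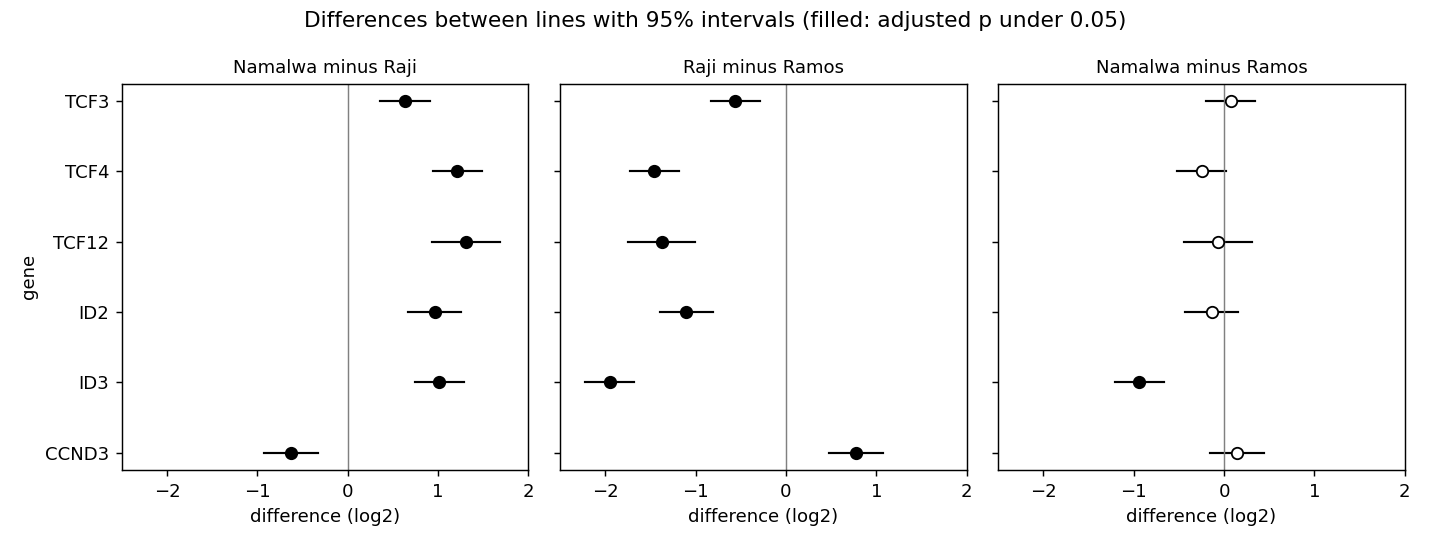
Differences between lines in log2 units with 95% intervals for the 6 tested members, filled where called. ID3 has the largest of these, -1.95 for Raji minus Ramos, and is the only member called for Namalwa minus Ramos, at -0.94.

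These counts stand against many differences between the lines over all genes. Between Namalwa and Raji 6 of 6 tested members were called, against 46.1% of tested genes. In that comparison 23.4% were higher in Namalwa, as were 5 members, and 22.8% were lower, as was CCND3. Between Raji and Ramos 6 of 6 members were called, against 50.5% of genes, with 26.1% higher in Raji, CCND3 among them, and 24.4% lower, 5 members among them. Between Namalwa and Ramos 1 of 6 was called, against 14.7%, of which 8.09% were higher and 6.57% lower in Namalwa, and ID3 was lower. A gene lower in Raji than in both other lines, as 5 members were, made up 18.6% of genes, and one higher in Raji than in both, as CCND3 was, 17.5%. Both Raji arrays were below the other 4 for 26.1% of genes and for 5 of 6 members, and above them for 30.9% and for CCND3. The comparisons share arrays, so the counts of 1 line are not separate evidence.

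Line accounted for 94.5% (TCF12) to 99.985% (ID3) of the variance over the 6 arrays among the tested members. Over all tested genes the median was 81.7% and the upper quartile 94.1%. For ID1 it was 83.0%. The 2 ID3 arrays of a line were close: the SD of its 2 arrays was 0.0018 for Raji, 0.01 for Namalwa and 0.02 for Ramos.

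The comparison of miR26a with empty asks what the microRNA did to the axis across lines. None of 6 tested members passed an adjusted p of 0.05 in limma with the line as a block, and 0 of 6 had an unadjusted p under 0.05 on the brightest probe set. Among all member probe sets above the level minimum, 4 of 13 for TCF3 and 2 of 4 for TCF12 had one, against 12.3% of all probe sets. Over all genes, 0% passed the adjusted threshold and 12.9% the unadjusted one. TCF3 was lower with miR26a in all 3 lines, a pattern that 19.6% of genes shared. TCF4 and ID2 were higher in all 3, as were 15.5% of genes.

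**Figure D3:**
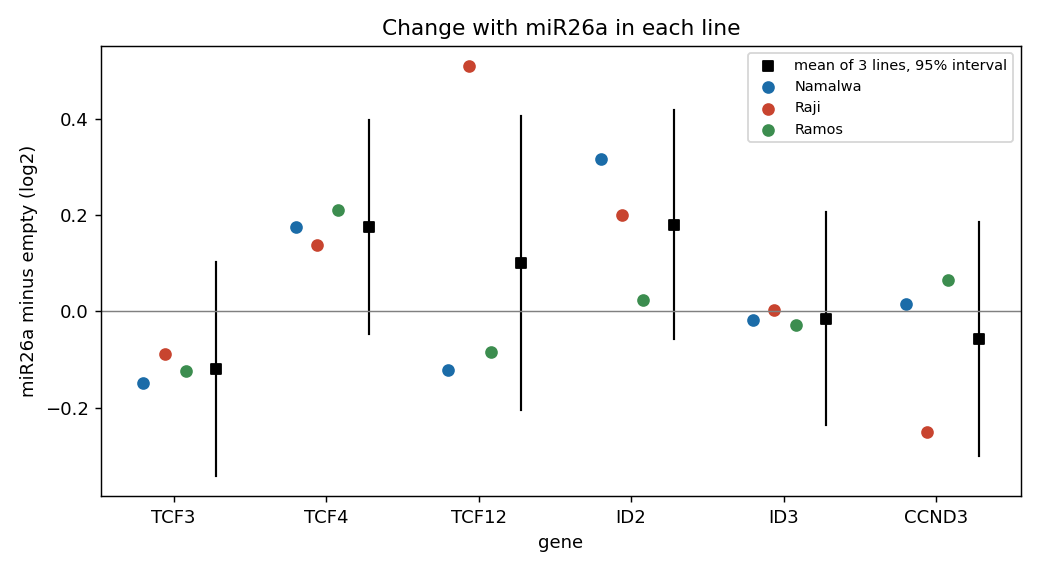
Log2 difference between miR26a and empty for the 6 tested members in each line (points), with the mean over lines and its 95% interval (squares and bars). TCF3 is below 0 and TCF4 and ID2 are above 0 in all 3 lines, while TCF12 reaches 0.51 in Raji alone.

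TCF3 averaged 10.48 ± 0.33 with miR26a and 10.60 ± 0.36 with empty (SD, n = 3 each). It differed by -0.15 in Namalwa, by -0.09 in Raji and by -0.12 in Ramos, a mean of -0.12 with a 95% interval of -0.34 to 0.10 (limma adjusted p = 0.667). TCF4 averaged 10.36 ± 0.80 with miR26a and 10.19 ± 0.76 with empty, and its differences of 0.18 (Namalwa), 0.14 (Raji) and 0.21 (Ramos) gave a mean of 0.18 with an interval of -0.05 to 0.40 (limma adjusted p = 0.501). Both were small and even across lines, and both intervals include 0. TCF12 averaged 9.03 ± 0.60 with miR26a and 8.93 ± 0.95 with empty, with -0.12 for Namalwa, 0.51 for Raji and -0.08 for Ramos. Its mean of 0.10 (interval -0.20 to 0.41; limma adjusted p = 0.814) rested on Raji, and was -0.10 without that line.

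The inhibitors did not pass either. ID2 averaged 7.55 ± 0.59 with miR26a and 7.37 ± 0.62 with empty, with differences of 0.32 (Namalwa), 0.20 (Raji) and 0.02 (Ramos) and a mean of 0.18 (interval -0.06 to 0.42; limma adjusted p = 0.517). ID3 averaged 9.76 ± 0.97 with miR26a and 9.78 ± 0.98 with empty, and its mean difference of -0.01 had an interval of -0.24 to 0.21 (limma adjusted p = 0.974). By line it was -0.02 (Namalwa), 0.0026 (Raji) and -0.03 (Ramos). ID1, untested, differed by 0.02 (Namalwa), -0.52 (Raji) and -0.66 (Ramos), near the low end of the scale in the first 2 of these lines. With no level minimum its mean difference was -0.39 (limma unadjusted p = 0.018, adjusted p = 0.352). CCND3 averaged 8.57 ± 0.33 with miR26a and 8.63 ± 0.50 with empty, with differences of 0.01 (Namalwa), -0.25 (Raji) and 0.06 (Ramos) and a mean of -0.06 (interval -0.30 to 0.19; limma adjusted p = 0.875), which was 0.040 without Raji.

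The other probe sets of the members were set beside the brightest ones. For TCF4, all 8 probe sets were called higher in Namalwa than in Raji, by 0.67 to 1.24, and all 8 lower in Raji than in Ramos, with differences of -1.69 to -1.09. For TCF12 the same held for 4 of 4, with 0.80 to 1.46 and -1.69 to -1.38, and for both of 2 probe sets of ID2. The second ID2 probe set, 201566_x_at, was at 6.12 with miR26a and 6.02 with empty in Namalwa, 5.25 with miR26a and 4.72 with empty in Raji, and 6.04 with miR26a and 6.08 with empty in Ramos. The differences of Raji from the other lines were thus called on each probe set tested for these 3 genes, and 1 further probe set annotated to ID2 and ID2B was not used. Over all probe sets above the level minimum, 41.3% were called for Namalwa minus Raji, 46% for Raji minus Ramos and 11.3% for Namalwa minus Ramos. Of the 4 TCF12 probe sets 1, 238041_at, was called lower in Namalwa than in Ramos (-0.51, adjusted p = 0.0370 over probe sets), and 0 of 8 for TCF4. All 8 TCF4 probe sets were lower in Namalwa, at -0.53 to -0.25, and all 4 of TCF12, at -0.60 to -0.07. For both genes the brightest probe set had the smallest of these differences. With miR26a, 7 of the 8 TCF4 probe sets were higher and 1 lower, with mean differences of -0.06 to 0.27 and 0 called. The highest, 212385_at, had 0.64 in Namalwa, where the empty array stands apart in RNA quality as given below for TCF3, and its differences were 0.04 for Raji and 0.13 for Ramos. ID3 and ID1 had 1 probe set each.

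TCF3 was less uniform. Of its 14 probe sets 13 were above the level minimum; between Namalwa and Raji 6 were called higher and 1 lower, 216647_at at -0.50. Between Raji and Ramos 7 were called lower and 0 higher. The brightest, 213811_x_at, carries the suffix that Affymetrix gives to probe sets whose probes may also match other transcripts. The probe set with the largest line difference was 209153_s_at, at 0.93 for Namalwa minus Raji and -1.16 for Raji minus Ramos. Others, such as 216645_at with -0.03 and 0.15, were not called. The brightest TCF3 probe sets, those with means of 8.40 or more, were all called lower in Raji in both comparisons. Dimmer ones include 216647_at, with a mean of 5.07, and 216645_at, with 6.82. With the mean of all its probe sets TCF3 was not called between Namalwa and Raji (0.25, adjusted p = 0.0685). Which transcripts each probe set reads was not analysed here.

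**Figure D4:**
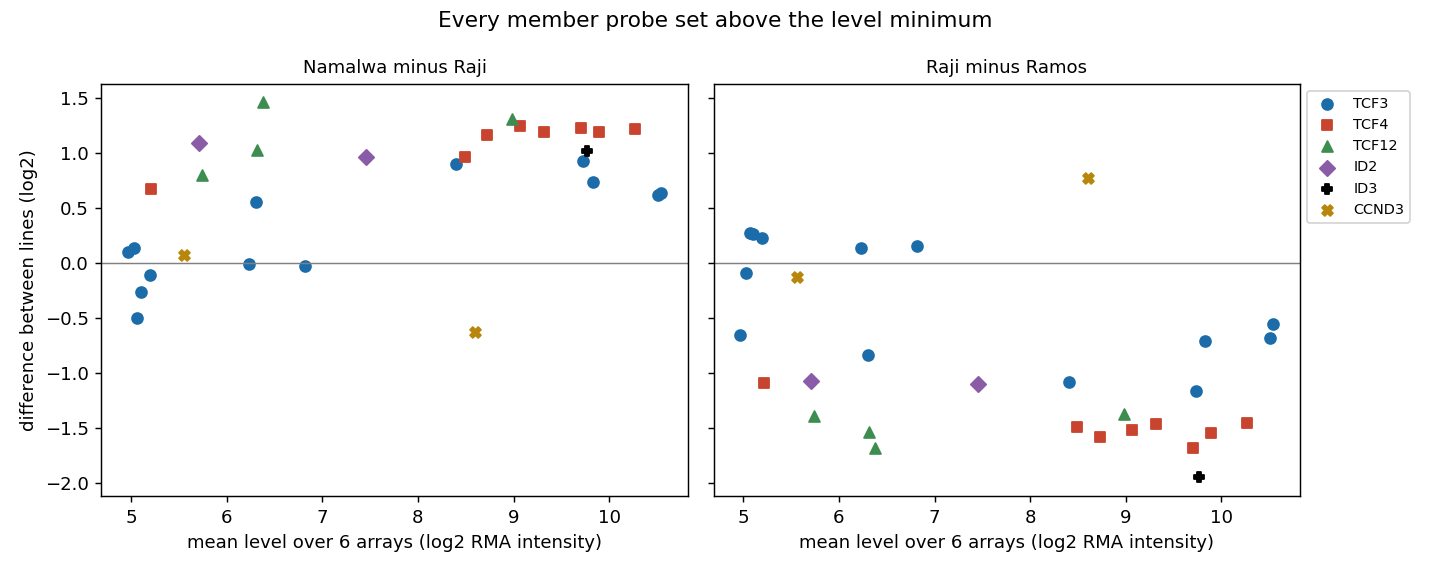
Log2 difference of each member probe set above the level minimum (vertical axis) against its mean log2 level over the 6 arrays (horizontal axis), for Namalwa minus Raji on the left and Raji minus Ramos on the right, with a marker per gene. TCF4 and TCF12 probe sets lie on one side of 0 in each panel, while those of TCF3 spread from -0.50 to 0.93 for Namalwa minus Raji.

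With miR26a, 11 of the 13 TCF3 probe sets were lower and 2 higher, and 0 were called. The 209153_s_at values were 9.60 with miR26a and 10.32 with empty in Namalwa, 8.93 with miR26a and 9.13 with empty in Raji, and 10.10 with miR26a and 10.30 with empty in Ramos. Its Namalwa difference of -0.72 was the largest of the 3. Its mean was -0.38 (limma adjusted p = 0.317 over probe sets), against -0.12 for the brightest. The Namalwa empty array had an ACTB 3′ minus 5′ signal of 3.58, against 1.80 to 1.98 on the other 5 arrays, and for GAPDH 0.31 against 0.10 to 0.16; the part of this in the Namalwa differences was not tested. Without Namalwa 209153_s_at averaged -0.20 and the brightest TCF3 probe set -0.11.

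All 4 TCF12 probe sets had a mean difference above 0 with miR26a, from 0.10 to 0.72, and 0 were called. The highest was 233678_at, with 0.27 (Namalwa), 1.39 (Raji) and 0.51 (Ramos; limma adjusted p = 0.212 over probe sets). For 215611_at the differences were 0.10 (Namalwa), 0.64 (Raji) and 0.79 (Ramos). The brightest TCF12 probe set differs from these in Namalwa and Ramos, where it was below 0. The second CCND3 probe set, 1562028_at, was not called between lines, at 0.07 for Namalwa minus Raji and -0.13 for Raji minus Ramos. It was dimmer, with a mean of 5.56 against 8.60 for the brightest. Averaged with the brightest, CCND3 was not called between Namalwa and Raji (-0.28, adjusted p = 0.0548).

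Partners of the E proteins were next. Of 20 listed partners and cofactors, 19 were on the array and 15 were tested. Between Namalwa and Raji 5 were called higher and 4 lower, 33.3% and 26.7% against 23.4% and 22.8% of all genes, with a median of 0.15 against -0.05 over all genes. CBFA2T3, a corepressor that binds E proteins, was at 7.81 in Namalwa and 3.90 in Raji, the second value being under the level minimum (difference 3.91, SE 0.12; adjusted p = 1.32e-08). It passed the filter on the mean through Namalwa and Ramos, so the size of its differences from Raji is uncertain. The same holds for BHLHE40, counted among those called in both comparisons with Raji, with a Raji mean of 2.99. LMO2, a bridging protein of E protein complexes and a germinal centre marker, was higher in Raji, at 6.12 in Namalwa and 9.04 in Raji (-2.92; adjusted p = 1.37e-06). Between Raji and Ramos 4 were called higher and 6 lower, 26.7% and 40% against 26.1% and 24.4% of all genes (median 0.06, equal to that of all genes), among them LMO2 at 4.04 and CBFA2T3 at -3.07. Between Namalwa and Ramos 4 were called higher and 1 lower, 26.7% and 6.67% against 8.09% and 6.57% of all genes, with LMO2 at 1.11 (adjusted p = 0.00385).

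B-cell genes regulated by E proteins included 23 tested of 26 on the array and 28 listed. Between Namalwa and Raji 11 were called higher and 5 lower, 47.8% and 21.7% against 23.4% and 22.8% of all genes, with a median of 0.51 against -0.05. VPREB1, a part of the surrogate light chain and a textbook E protein target, was at 7.80 in Namalwa and 2.75 in Raji (adjusted p = 6.27e-09). RAG2, of the recombinase, was at 6.14 in Namalwa and 2.26 in Raji. Between Raji and Ramos 6 were called higher and 12 lower, 26.1% and 52.2% against 26.1% and 24.4% of all genes. The median was -0.49 against 0.06, and VPREB1, RAG2 and BACH2 led with -5.40, -4.67 and -4.57. The Raji means of all 3 are below the level minimum, although BACH2 on the Raji miR26a array was at 4.45, so the size of these differences is uncertain. These genes passed the filter on the mean through Namalwa and Ramos. Between Namalwa and Ramos 3 were called higher and 4 lower, 13.0% and 17.4% against 8.09% and 6.57% of all genes, with IL7R, the interleukin-7 receptor chain, at 7.03 in Namalwa and 9.32 in Ramos (-2.30; adjusted p = 4.08e-05).

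Of 29 genes listed for cyclin D, its kinases and the RB pathway, 28 were on the array and 24 were tested. CCND1 and CCND2, the other D-type cyclins, averaged 3.61 and 3.89 and were below the minimum, while the partner kinases CDK4 and CDK6 had levels of 9.34 to 9.89 and 9.80 to 10.41. CCND3 was the 1 D-type cyclin above the minimum. These 4 genes were singled out after their values were seen. Between Namalwa and Raji 9 were called higher and 5 lower, 37.5% and 20.8% against 23.4% and 22.8% of all genes (median 0.15). CDKN1A, the kinase inhibitor p21, was higher in Namalwa by 2.47 (adjusted p = 2.58e-07), and CDKN1B, which encodes p27, was lower (-1.58; adjusted p = 0.000107). Between Raji and Ramos 3 were called higher and 8 lower, 12.5% and 33.3% against 26.1% and 24.4% of all genes (median -0.06), with CDKN1A at -2.35 and CDKN1B at 1.82. Between Namalwa and Ramos 2 were called higher and 1 lower, 8.33% and 4.17% against 8.09% and 6.57% of all genes, and the lower one was TFDP1, the dimer partner of E2F proteins, at -1.33 (adjusted p = 0.000175).

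The list named BMP and EGR inducers of ID genes numbered 18, with 16 on the array and 8 tested. Not all of them are inducers, since SMAD6, SMAD7 and BAMBI restrain BMP signals. Of these SMAD6 was tested, and it is counted below among the genes lower in Raji than in Ramos. It was at 5.11 on both Raji arrays, and at 5.76 with miR26a and 5.79 with empty in Ramos. Between Namalwa and Raji 4 were called higher and 0 lower, 50% and 0% against 23.4% and 22.8% of all genes (median 0.46). SMAD1, a mediator of BMP signals, was at 8.66 in Namalwa and 3.99 in Raji. Its Raji values are under the level minimum, and it passed the filter through Namalwa and Ramos. Between Raji and Ramos 2 were called higher and 6 lower, 25% and 75% against 26.1% and 24.4% of all genes (median -0.81). SMAD5, which also carries BMP signals, was lower in Raji (-1.37; adjusted p = 1.74e-05), and EGR1, which is known to induce ID3 in lymphocytes, was higher by 1.97 (adjusted p = 9.14e-06). Between Namalwa and Ramos 1 was called higher and 2 lower, 12.5% and 25% against 8.09% and 6.57% of all genes, EGR1 being higher by 2.31 (adjusted p = 3.81e-05).

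**Figure D5:**
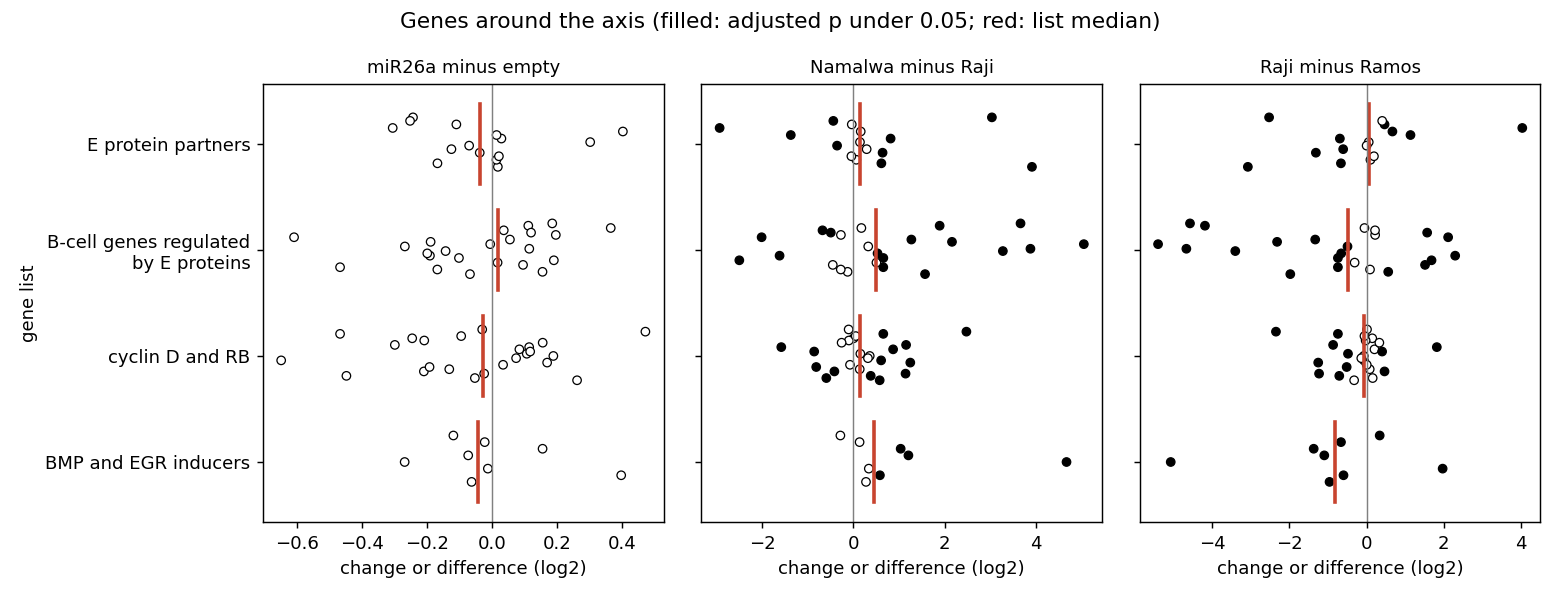
Log2 difference of each tested gene of the 4 lists for miR26a minus empty, Namalwa minus Raji and Raji minus Ramos, each panel with its own horizontal scale; filled points are called and red bars are list medians. No point is filled between miR26a and empty, and the B-cell genes have medians of 0.51 and -0.49 in the 2 panels with Raji.

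Between miR26a and empty 0 genes of these lists were called, and their medians were -0.04, 0.02, -0.03 and -0.04, in the order given above, against -0.01 for all genes. By unadjusted p under 0.05 there were 3 of 15 partners, 4 of 23 B-cell genes and 6 of 24 cyclin and RB genes. Of the BMP and EGR list there were 2 of 8. These shares were 17.4% to 25%, against 12.9% of all genes. CCNE2, cyclin E2, a target of E2F, was at 5.89 with miR26a and 6.54 with empty (-0.65; limma adjusted p = 0.0730). MYBL1, a germinal centre transcription factor, had -0.61 (limma adjusted p = 0.0826). CDKN1A had 0.47 (limma adjusted p = 0.111), and E2F2, which stands on both the B-cell and the cyclin lists, had -0.47 (limma adjusted p = 0.117).

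Over the 6 arrays the genes most like each member in level were picked by Pearson correlation, as a description, since the arrays of a line share that line. For ID3 they were LMO4, a LIM-domain adaptor, at 0.996, WDR3 and PRKXP1. LMO4 was at 8.11 with miR26a and 8.08 with empty in Namalwa, 7.38 with miR26a and 7.52 with empty in Raji, and 8.76 with both in Ramos, the same order of lines as ID3. For TCF3 they were ATPAF1, HNRNPH3 and ZFHX3, for TCF4 SLC35G1, SEPTIN7P14 and WIPI2, and for TCF12 NBPF1, TOB2 and AP4S1. For ID2 they were ZNF585A, PI4K2A and SNX19, and for CCND3 DPP3, MED12 and PUS10. Between 395 (ID3) and 857 (TCF4) genes had a correlation above 0.95 with a member, so likeness of this size was common. Among the members, TCF4 and ID2 had a correlation of 0.989 and TCF12 and CCND3 one of -0.991.

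All 8 B-cell and all 9 germinal centre markers were above the level minimum on every array. By their mean, 3 of 10 T and NK, 3 of 9 monocyte, 2 of 4 red cell and 3 of 7 fibroblast markers were above it. On every array this held for 2 T and NK, 1 monocyte, 2 red cell and 1 fibroblast markers. The markers moved with the lines too. The log2 of the summed germinal centre signal was 13.09 in Raji, with 11.68 for Namalwa and 11.35 for Ramos. That of the B-cell signal was 13.15 in Raji, with 12.39 for Namalwa and 12.21 for Ramos. These sums follow the brightest genes, and not every marker was higher in Raji. MME and CD38, and among the B-cell markers PAX5, FCRLA and BLK, were lower on both Raji arrays than on all others. MPEG1, on the monocyte list, was at 4.37 to 4.76 in Raji, against 7.15 to 8.52 in the other lines, while CD14 and LYZ were below the level minimum on all arrays. Over the monocyte list the summed signal was 7.50 in Raji, with 8.71 for Namalwa and 8.22 for Ramos, a difference that follows MPEG1. CSF1R went the other way, at 4.79 to 4.97 in Raji against 4.21 to 4.27 in the other lines. AIF1 was at 5.66 to 6.03 on all arrays. The part of these markers in the line differences of the members was not tested. Array medians were 4.36 to 4.44. Without the empty array of Namalwa, whose ACTB signal stood apart, 6 of 6 members were still called between Namalwa and Raji, 6 of 6 between Raji and Ramos, and 1 of 6 between Namalwa and Ramos.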

How the data were processed

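Total RNA from 6 transfected samples was profiled on Affymetrix U133 Plus arrays. The authors deposited log2 intensities from RMA, run in BRB Array Tools per the labels; the submitters' processing notes add GCOS, without versions. RMA gives all arrays the same distribution, so a shift of all RNAs would not show. Nothing was normalised again for the reported values. Of 54675 probe sets 41091 carried 1 gene symbol, and symbols were updated through RefSeq on GRCh38.p14. limma (3.58.1, R 4.3.3) was fitted over 12012 genes, blocked by line for the groups and with a group term for the lines. Benjamini-Hochberg adjusted p-values ran over all of them, with a threshold of 0.05. The pairing by line follows from the labels, and deviations from group means correlated at 0.861, 0.950 and 0.917 within lines. The members and lists were chosen with earlier results of these data known. List genes were named from the 3 with the largest change among those called in a comparison, or with the smallest p where none was called. The fits were tried on simulated data drawn with moderated SDs. A first simulation, with each gene's own SD, recovered fewer of the planted changes, failed its preset criteria and was replaced after that failure. The replacement took its noise from the spread that the same fit estimates, so its passing says little about the fits. Alternatives are given in the closing section. Probe sets with several genes were left out, 1 of them for ID2.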

Additional observations from a re-analysis of the deposited data

Results flagged for a closer look

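On the brightest probe set, 3 members had differences between miR26a and empty that changed direction between lines. TCF12 had -0.12 (Namalwa), 0.51 (Raji) and -0.084 (Ramos). CCND3 had 0.015 (Namalwa), -0.25 (Raji) and 0.065 (Ramos), the opposite pattern. The other probe sets of these genes did not change direction. Those of TCF12 were higher with miR26a in every line, for 238041_at by 0.22 (Namalwa), 0.25 (Raji) and 0.15 (Ramos). The second CCND3 probe set, 1562028_at, was lower in every line, with -0.11 (Namalwa), -0.16 (Raji) and -0.04 (Ramos). ID3 had -0.018 (Namalwa), 0.0026 (Raji) and -0.028 (Ramos), which is close to 0 in each. With 1 pair of arrays per line, these differences between lines were not tested.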

How the results depend on the processing

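Over all alternatives run, 0 members were called between miR26a and empty, 4 to 6 between Namalwa and Raji, 6 to 7 between Raji and Ramos, and 1 to 2 between Namalwa and Ramos; the 2 came with no level minimum, which added ID1, and with the mean of all probe sets, which added TCF4 (-0.37, adjusted p = 0.0370). With that mean, Namalwa minus Raji lost TCF3 (0.25, adjusted p = 0.0685) and CCND3 (-0.28, adjusted p = 0.0548). Without the replicate block no member was called between groups (TCF3 -0.12, adjusted p = 0.99987), so the block changed no call. Genes called between miR26a and empty numbered 50 with the minimum at the 75th percentile, 102 under a robust prior with an intensity trend, and 0 to 203 leaving out a line: 0 without Namalwa, 203 without Raji and 23 without Ramos. Genes called between Namalwa and Ramos numbered 870 to 2430 leaving out an array, with 983 without the miR26a and 936 without the empty array of Namalwa, and 957 without the miR26a and 870 without the empty array of Ramos. Differences that changed sign were not called in either setting: without Raji, TCF12 between groups was -0.10 and CCND3 0.040 (ranges leaving out a line -0.10 to 0.21 and -0.12 to 0.040), and ID3 was 0.0030 after cyclic loess. For Namalwa minus Ramos, TCF3 was -0.24 with the most variable probe set and -0.10 with the mean of all probe sets, ID2 was 0.0083 with the most variable, and TCF12 was 0.014 after cyclic loess and -0.23 to 0.10 leaving out an array. The cause was not tested. Testing every probe set on its own was added after seeing the data. With 6 arrays, differences as small as those of the members between groups were not resolved.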
